A study of Sus scrofa with 6 samples.

Results

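The regions described here were 2366 intergenic stretches of pig DNA that held at least 10 CpGs and had a higher mean methylation read depth in Landrace backfat than in Rongchang backfat. They were selected on measured values of these libraries, from the 14163 differentially methylated regions (DMRs) of the deposited table, of which they made up 16.7%. The table listed 9300 DMRs as intergenic, and 2445 of these had 10 or more CpGs. The other 79 of the 2445 were lower in Landrace backfat.

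Methylated DNA immunoprecipitation sequencing (MeDIP-seq) was performed on backfat, the fat layer under the skin of the back, of Landrace pigs (LBF, a lean breed) and Rongchang pigs (RBF, a fatty Chinese breed). There were 3 libraries per breed, each from a separate animal. All pigs were females, were kept under the same conditions and were killed at an age of 210 days, so breed was the only labelled difference, and every library came from bulk tissue. Cell composition was not measured, and a table of called methylation regions holds no marker levels against which the tissue label could be checked.

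In vertebrate DNA, methyl groups are placed mainly on the cytosine of CpG dinucleotides, and most CpGs outside genes are methylated. CpG islands, dense runs of CpGs that often overlap gene starts, are usually free of methylation, and the flanks of an island are called its shores. In MeDIP-seq an antibody against methylated cytosine pulls down fragments, so that read depth rises with the number of methylated CpGs on a fragment as well as with the fraction of DNA copies that carry them. Intergenic CpG-rich stretches also include repeats and distal regulatory elements, which are often methylated in somatic tissue.

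The value of a region in a library was its normalized read depth, averaged over its CpGs. Positions are those of the table, on Sscrofa10.2, and every region named was annotated as intergenic there. Across the 2366 regions the median depth was 43.9, 45.4 and 43.9 in LBF replicates 1, 2 and 3. The corresponding medians in RBF were 11.04, 11.8 and 5.68. The LBF libraries were alike, and the RBF libraries were lower, with RBF replicate 3 lowest. The mean depth over a breed ran from 10.4 to 1682 in LBF, with a median of 44.6, and from 0.43 to 184 in RBF, with a median of 9.93. The table does not hold the total reads of each library. Input DNA was not analysed here, so more methylation and more DNA copies of a region cannot be told apart.

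**Figure D1:**
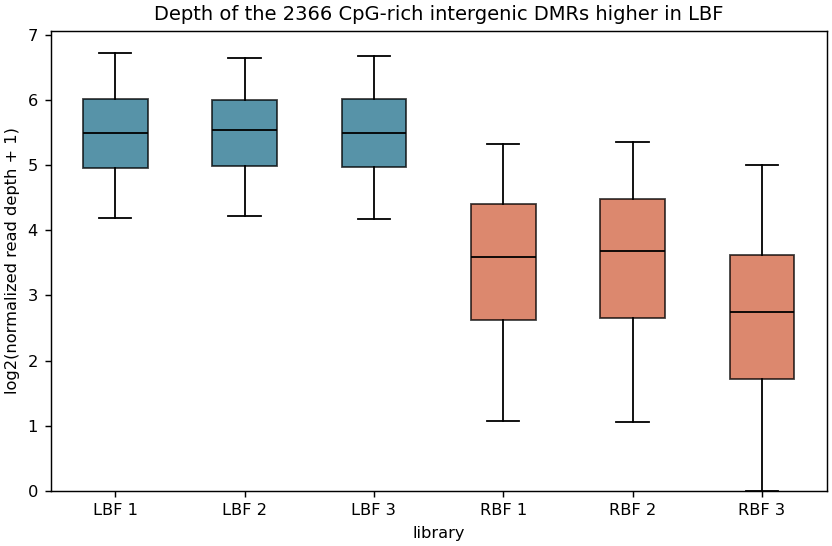
Normalized read depth of the 2366 regions in each library, as log2(depth + 1); boxes span the quartiles with the median as a line, and whiskers reach the 5th and 95th percentiles. The LBF medians correspond to depths of 43.9 to 45.4 and the RBF medians to depths of 5.68 to 11.8, with RBF replicate 3 lowest.

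The median log2 fold change (LBF over RBF, the difference of the breed means of log2(depth + 1)) was 2.20, with quartiles of 1.68 and 2.86 and a range of 0.31 to 5.88. In the typical region the RBF mean depth was 22.8% of the LBF mean depth. It was under 10% in 351 regions (14.8%), under 25% in 1357 regions (57.4%) and under 50% in 2268 regions (95.9%). Over all DMRs of the table, which include those lower in LBF, these shares were 7.13%, 34.5% and 76.6%. They were 12.0%, 53.0% and 94.4% in the intronic DMRs with at least 10 CpGs that were higher in LBF. In the intergenic DMRs with under 10 CpGs that were higher in LBF they were 6.88%, 36.1% and 89.0%. The median log2 fold change was 1.64 over all DMRs, 1.70 over the 5596 intergenic DMRs with under 10 CpGs that were higher in LBF, and 2.09 over the 960 intronic DMRs with at least 10 CpGs that were higher in LBF. The intronic regions thus lay close to the intergenic ones. In the 79 CpG-rich intergenic DMRs lower in LBF the median was -1.62.

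In all 2366 regions the lowest LBF library was above the highest RBF library, a separation seen in 84.8% of all DMRs. With limma on log2(depth + 1) and adjustment over the whole table, 2359 of the 2366 regions passed an adjusted p of 0.05, beside 84.5% of all DMRs that passed as higher in LBF and 99.5% that passed in either direction. The table lists only regions already called between these libraries and the direction was part of the selection, so these counts describe the regions and test nothing. With 3 pigs per breed, an exact two-sided permutation test of a single region cannot go below p = 0.1.

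The 7 regions that did not pass were of 2 kinds. The 5 regions with the smallest log2 fold changes, 0.31 to 0.39, had narrow but separate breeds. The smallest was chr7:5493246-5493525, with depths of 43.7, 45.6 and 45.4 in LBF and of 33.1, 37.6 and 37.2 in RBF. The LBF mean there was 1.25 times the RBF mean. The nearest CpG-rich region on the other side of the direction cutoff, chr9:148686641-148687001, had depths of 17.2, 14.7 and 15.7 in LBF and of 20.6, 22.8 and 23.8 in RBF. The other kind had a large fold and a single very low RBF library. The region chr2:77362784-77362943 read 70.8, 67.3 and 77.3 in LBF but 33.5, 23.0 and 0 in RBF, with a log2 fold change of 2.95 and a limma adjusted p of 0.060. At chr3:3258456-3258632 the depths were 68.9, 62.0 and 69.6 in LBF and 26.0, 26.0 and 0.22 in RBF. In both regions RBF replicate 3 was the low library.

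The breed means depended on how libraries were scaled. When every library was given the same median over all DMRs, the median log2 fold change of all DMRs moved from 1.64 to 0.24 and that of the 2366 regions from 2.20 to 0.81. Of the regions, 2013 (85.1%) remained higher in LBF, against 59.8% of all DMRs, and 353 were lower. Of the 353, 20 passed limma at an adjusted p of 0.05 as lower. These were 0.85% of the 2366 regions, beside 17.0% of all DMRs. The set was selected for a higher depth in LBF, so nothing is read from these shares. Those passing as higher were 524 (22.1% of the 2366 regions), beside 10.9% of all DMRs. Directions and folds below are on the deposited scale unless stated.

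The number of CpGs was the property that set these regions apart by rule, and direction varied with it among intergenic DMRs. Of those with 5 or 6 CpGs, 77.8% (95% exact binomial interval 76.4 to 79.0) were higher in LBF. The share was 87.0% with 7 to 9 CpGs, 96.4% with 10 to 14 and 98.7% (97.4 to 99.5) with 15 to 19. It was 96.3% with 20 to 29 CpGs and 90.9% (81.3 to 96.6) in the 66 DMRs with 30 or more. The share was therefore highest between 10 and 29 CpGs and lower in the longest regions, whose interval was wide. On both sides of the CpG cutoff together, 96.8% of 2445 against 81.6% of 6855 were higher in LBF, and with equal library medians 82.3% against 53.8%. The intervals count regions as if independent and cover counting error only.

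The log2 fold change followed the same order only in part. Among regions higher in LBF its median was 1.63 with 5 or 6 CpGs, 1.79 with 7 to 9, 2.11 with 10 to 14 and 2.52 with 15 to 19. It was 2.33 with 20 to 29 CpGs and 1.48 with 30 or more. The median LBF depth was 46.0 at 10 to 14 CpGs and 42.9 at 15 to 19, and the median RBF depth was 10.6 and 7.56, so the larger fold at 15 to 19 CpGs came with a lower RBF depth. In the 60 regions with at least 30 CpGs the median RBF depth was 13.0. The CpG cutoff itself marked no step: the 469 regions with exactly 10 CpGs had a median log2 fold change of 1.97, and the 630 intergenic DMRs with 9 CpGs just outside had 1.91.

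**Figure D2:**
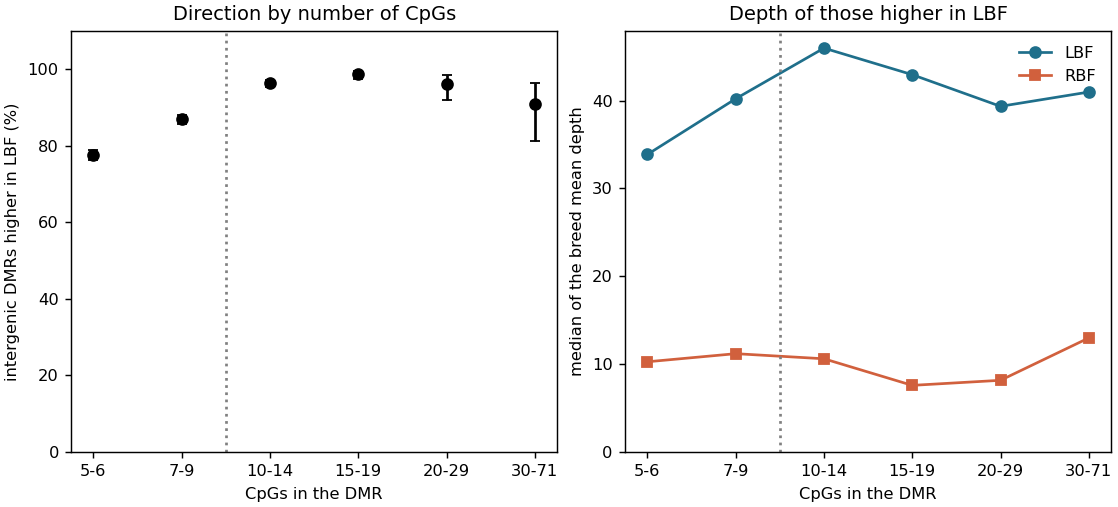
Left, percent of intergenic DMRs higher in LBF by number of CpGs, with 95% exact binomial intervals; right, median over regions of the breed mean depth, for those higher in LBF (dotted line, the cutoff of 10 CpGs). The share rises from 77.8% to 98.7% at 15 to 19 CpGs, where the median RBF depth is lowest at 7.56.

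These regions were rich in CpGs by number more than by density. They were 23 to 1989 bp long, with a median of 217 bp, and held 10 to 71 CpGs, with a median of 13. The median density was 5.85 CpGs per 100 bp, against 5.23 over all DMRs and 5.15 in the CpG-poor intergenic regions higher in LBF. The 79 CpG-rich intergenic regions lower in LBF were longer, with a median of 320 bp, and less dense, with 3.92 CpGs per 100 bp. In sum the 2366 regions covered 668226 bp and 33584 of the 118529 CpGs in the table. Density also fell among the largest regions, to a median of 3.28 CpGs per 100 bp in those with 30 or more CpGs.

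Few regions lay in annotated CpG islands. The table marked 28 of 2366 (1.18%, 95% exact interval 0.79 to 1.71) as overlapping an island and 76 (3.21%, 2.54 to 4.004) as lying in a shore, and 2265 (95.7%) as neither. Over all DMRs 0.74% overlapped an island and 4.65% lay in a shore. None of the 79 CpG-rich intergenic regions lower in LBF overlapped an island, which allows a share of up to 4.56%. The 28 island regions had median depths of 40.2, 40.2 and 38.1 in LBF and of 6.24, 5.66 and 5.86 in RBF. Their median log2 fold change was 2.78, with a range of 1.23 to 3.92, and 9 of the 28 were on the X chromosome. In these regions the RBF libraries had nearly equal medians, unlike in the whole set.

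The 5 island regions with the most CpGs were spread over 4 chromosomes. The largest was chrX:144047994-144049059, with 59 CpGs, depths of 63.2, 59.4 and 52.5 in LBF and of 11.1, 0 and 7.31 in RBF. Next came chr11:84519157-84520042, with 37 CpGs, depths of 49.2, 42.4 and 46.0 in LBF and of 21.0, 24.99 and 12.9 in RBF. It had the smallest fold among the island regions (1.23 on the log2 scale), and with equal library medians its change was -0.22. At chrX:26029721-26030184, with 28 CpGs, the depths were 62.8, 45.1 and 61.1 in LBF and 0.71, 2.79 and 7.10 in RBF. All RBF libraries were low there, and the log2 fold change of 3.92 was the highest of the island regions. The remaining pair, chr7:2896651-2897625 and chr6:57743877-57744282, had LBF depths of 13.6 to 20.3 and RBF depths of 1.43 to 7.56.

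The regions with the most CpGs were not those with the largest folds. The region with the most CpGs, chr7:4481915-4483858, held 71 CpGs over 1944 bp. Its depths were 78.2, 74.8 and 77.4 in LBF and 50.1, 50.1 and 54.7 in RBF. Replicates were close within both breeds, and the breeds differed by 0.56 on the log2 scale as deposited and by -0.91 with equal medians, the opposite direction. The next, chr3:134445048-134446572, held 62 CpGs and read 23.6, 25.4 and 22.5 in LBF and 13.4, 10.7 and 6.45 in RBF. Its log2 fold change was 1.20 as deposited and -0.20 with equal medians. Over the 10 regions with the most CpGs (47 to 71) the log2 fold change ran from 0.56 to 3.67.

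The 10 regions with the largest log2 fold changes, 4.66 to 5.88, held 10 to 19 CpGs each. The largest was at chr7:2900310-2900406, a 97-bp region in an island shore, with depths of 131, 94.9 and 116 in LBF and of 0, 6.25 and 0 in RBF. It lay in the same few kilobases of chromosome 7 as the 36-CpG island region named above. The region chr1:259434894-259435095 read 77.8, 75.6 and 82.6 in LBF and 5.71, 0 and 0 in RBF. At chr15:83747174-83747388, with 16 CpGs, the depths were 91.4, 95.3 and 78.7 in LBF and 0, 4.49 and 0.81 in RBF. LBF depth was high in every animal at these sites, and RBF depth came from 1 or 2 animals.

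The X chromosome held 3 of these 10. At chrX:96693055-96693219 the depths were 50.0, 53.0 and 55.6 in LBF and 0, 1.56 and 0 in RBF. At chrX:97289196-97289327 they were 43.3, 35.5 and 35.2 in LBF and again 0, 1.56 and 0 in RBF. The repeated 1.56 was the most frequent value above 0 in RBF replicate 2 and was listed there for 53 regions. At chrX:92494329-92494459 the depths were 60.9, 69.4 and 58.6 in LBF and 4.57, 1.56 and 0 in RBF. With equal library medians the 10 log2 fold changes were 3.79 to 5.12. Among the 10, RBF animals differed most at chr7:120211061-120211500, where RBF replicate 1 read 22.4 and the other RBF libraries 0.

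**Figure D3:**
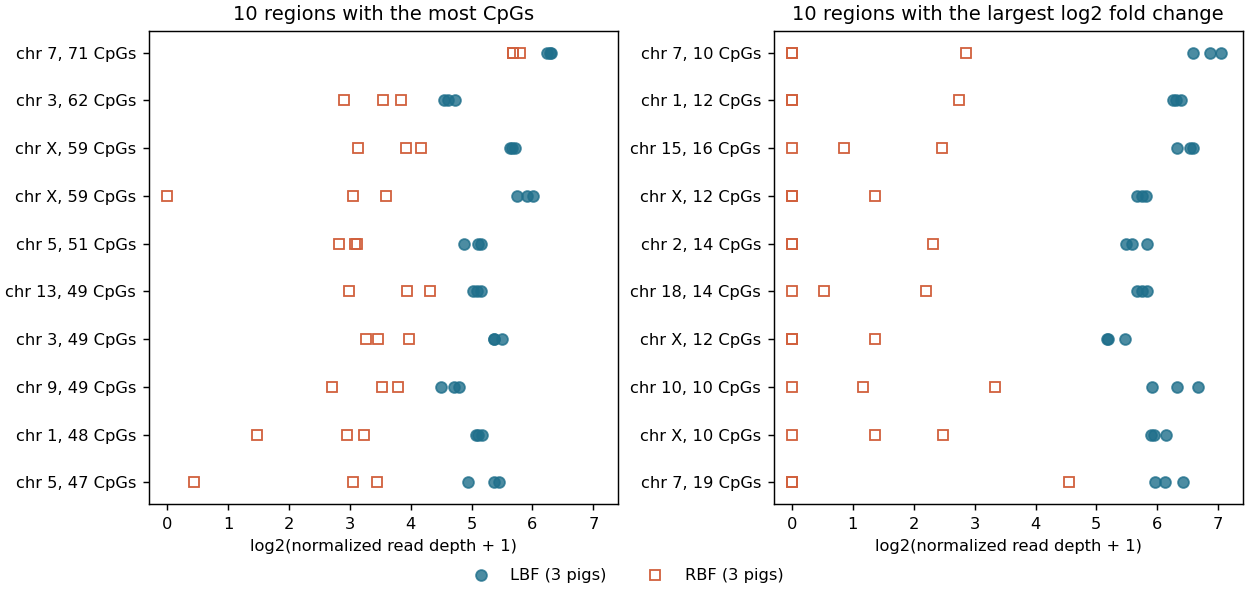
Depth in each of the 6 libraries, as log2(depth + 1), for the 10 regions with the most CpGs (left) and the 10 with the largest log2 fold change (right); filled circles are LBF and open squares RBF. LBF libraries cluster in every region, while RBF libraries spread and reach 0 in each of the 10 regions on the right.

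Depth in LBF was extreme in a few regions. The highest was at chr17:69498362-69498841, with 25 CpGs, where depths were 1352, 2182 and 1513 in LBF and 114, 421 and 16.5 in RBF. Next was chr17:35644468-35644886, with 438, 631 and 665 in LBF and 95.8, 220 and 109 in RBF. The third, chr6:143366012-143366768, read 357, 580 and 549 in LBF and 37.9, 58.0 and 134 in RBF. LBF replicate 1 was the lowest LBF library in each of these regions. The study counted reads that mapped to several places as a single read, and whether these regions are repeated in the genome was not tested. The fourth and the fifth, on chromosome 8, are described with KIT.

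The densest region was the shortest of the set. At chr18:541611-541633 10 CpGs fell within 23 bp (43.5 per 100 bp), with depths of 18.8, 15.7 and 20.6 in LBF and of 1.68, 1.56 and 3.87 in RBF. The second, chr6:111701226-111701264, held 11 CpGs in 39 bp, with depths of 8.22, 11.6 and 11.9 in LBF and of 4.57, 1.56 and 0.59 in RBF. The LBF means of these 2 regions were 18.4 and 10.6. The next 3, at 11.7 to 13.2 CpGs per 100 bp, had LBF means of 62.8, 15.6 and 55.0 in order of density.

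Spread between animals lay mostly in RBF. The median SD of log2(depth + 1) within a breed was 0.16 in LBF and 0.72 in RBF, against 0.17 and 0.46 over all DMRs. Among regions higher in LBF, the RBF value was 0.68 in the CpG-rich intronic and 0.50 in the CpG-poor intergenic ones. In the 79 CpG-rich intergenic regions lower in LBF the order was the reverse, 0.32 in LBF and 0.15 in RBF, so the wider spread went with the breed of lower depth. RBF replicate 3 was the lowest RBF library in 1583 regions (66.9%), replicate 1 in 402 (17.0%) and replicate 2 in 326 (13.8%). Over all DMRs replicate 3 was lowest in 54.0%. Among regions higher in LBF it was lowest in 69.5% of the CpG-rich intronic and 55.3% of the CpG-poor intergenic ones. In LBF each replicate was the lowest in 30.2% to 35.0% of the regions.

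A depth of 0 was listed only in RBF. The regions were selected for a higher LBF depth, so nothing is read from the breed in which zeros fell. In the CpG-rich intergenic DMRs lower in LBF, a 0 was listed only in LBF (2, 6 and 4 in replicates 1, 2 and 3). Among the selected regions it occurred in 73 in RBF replicate 1, in 80 in replicate 2 and in 168 in replicate 3. Of the regions, 266 (11.2%) had a 0 in at least 1 RBF library, and 6.21% did without RBF replicate 3. The share was 7.26% over all DMRs, which include those lower in LBF. Among DMRs higher in LBF it was 9.27% in the CpG-rich intronic and 8.29% in the CpG-poor intergenic ones. In 55 regions 2 RBF libraries were at 0, and no region was at 0 in all 3.

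The widest RBF spread that still passed limma was at chr6:85674808-85674978, with depths of 0, 44.3 and 3.78 in RBF and of 101, 88.3 and 87.7 in LBF. The next was chr5:86257030-86257247, where RBF read 39.4, 4.44 and 0 and LBF 104, 110 and 90.2. Here the low library differed, replicate 1 in the first and replicate 3 in the second. In LBF the widest spread was at chrX:26861073-26861244, with 62.4, 73.9 and 36.3 against 8.47, 2.15 and 0.73 in RBF. The lowest LBF library was above the highest RBF library there, as in all 2366 regions of this set selected for a higher LBF depth.

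The X chromosome carried more of these regions than any autosome. It held 351 of the 2366 (14.8%, 95% exact interval 13.4 to 16.3), against 9.16% of all DMRs, 8.17% of the CpG-poor intergenic regions and 10.21% of the CpG-rich intronic regions higher in LBF. In the 79 CpG-rich intergenic DMRs lower in LBF the share was 7.59%, with a wide interval (2.84 to 15.8). Within the set the share on X varied with CpG number. It was 8.53% with exactly 10 CpGs, 17.1% with 15 to 19, 24.5% with 20 to 29 and 13.3% with 30 or more. Of the 892 intergenic DMRs on X, 357 had at least 10 CpGs, and 351 of these were higher in LBF. On all chromosomes together 2366 of 2445 such DMRs were higher in LBF. The set thus made up 39.3% of the intergenic DMRs on X. On the autosomes this share ran from 16.8% on chromosome 16 to 28.5% on chromosome 8. The X interval did not overlap that of any autosome, though neighboring regions are not independent.

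**Figure D4:**
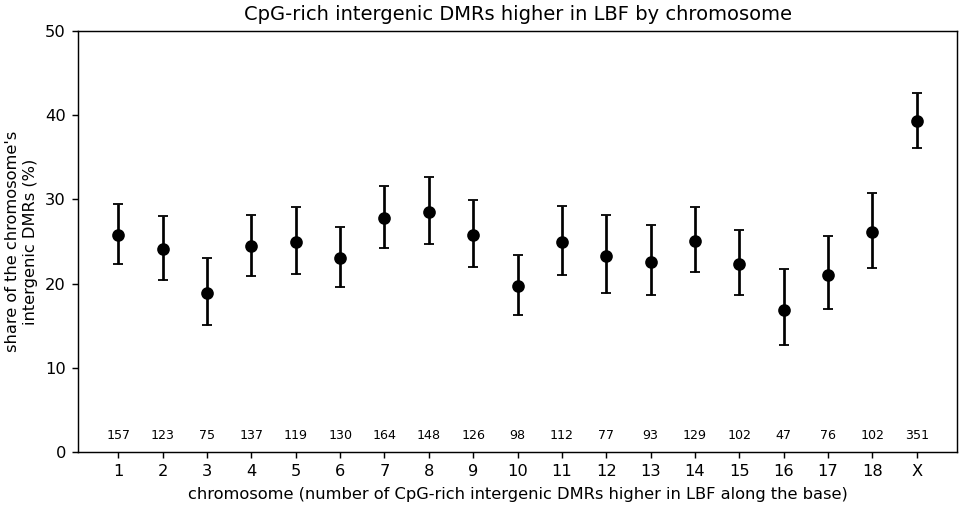
Percent of the intergenic DMRs of each chromosome that had at least 10 CpGs and a higher mean depth in LBF, with 95% exact binomial intervals and the number of such regions along the base. The X chromosome stands at 39.3% and the autosomes between 16.8% and 28.5%.

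On X, RBF depth was lower and LBF depth slightly lower than elsewhere. The X regions had median depths of 39.4, 39.9 and 39.3 in LBF and of 7.62, 7.45 and 3.69 in RBF. Their median log2 fold change was 2.49, against 2.14 over the 2015 autosomal regions. RBF mean depth was under 10% of LBF in 27.4% of X regions and in 12.7% of autosomal ones. Females carry a pair of X chromosomes, of which 1 is silenced in each cell, and all 6 pigs were females.

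Within X the regions were concentrated in the middle of the chromosome. In each 10-Mb window from 50 to 100 Mb, between 43.8% and 58.3% of the intergenic DMRs belonged to the set. Together these windows, picked after their values were seen, held 220 of the 351 X regions (62.7%) and 46.9% of the X intergenic DMRs. In the other windows the share was 14.04% to 46.8%. The lowest median RBF depths, 4.23 to 4.76, were in the 3 windows from 70 to 100 Mb, where the LBF medians were 33.4 to 38.3. The window from 20 to 30 Mb followed with 4.87.

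Some regions ran together. When regions at most 10 kb apart were joined, 2042 stood alone and 324 (13.7%) fell into 136 runs of 2 to 10. The longest run, chrX:144028196-144052180, held 10 regions with 296 CpGs over 23985 bp near the end of the X chromosome. Breed means there ran from 24.9 to 124 in LBF and from 2.27 to 32.0 in RBF. The log2 fold change of the fourth region, chrX:144035063-144036283, was 0.996, with depths of 26.0, 35.0 and 35.4 in LBF and of 12.7, 17.3 and 16.7 in RBF. That of the last, chrX:144051737-144052180, was 4.07, with 98.7, 88.8 and 80.1 in LBF and 9.39, 2.86 and 2.85 in RBF. Depth thus varied along the run in both breeds. The regions were selected for a higher LBF depth, so nothing is read from RBF lying below LBF at each of them. A further run of 5 regions, chrX:144074009-144092809, lay 37908 bp from an exonic DMR of PRKX, an X-linked protein kinase gene. With equal library medians the fourth region of the longest run reversed to -0.44.

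**Figure D5:**
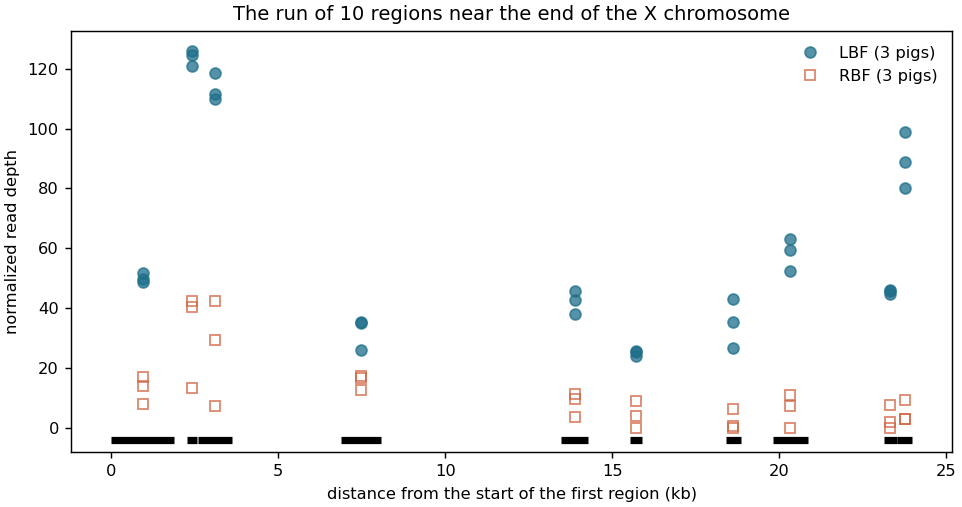
Normalized read depth of the 10 regions of the longest run against distance from the start of the first region, with each library as a point (filled circles LBF, open squares RBF) and black bars for the extent of each region. LBF breed means run from 24.9 to 124 and RBF breed means from 2.27 to 32.0. The breeds do not overlap at any region, as in all 2366 regions of the set.

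Runs of 7 regions were found on chromosomes 11 and X. The run chr11:82120423-82149064 held 118 CpGs, with breed means of 15.1 to 70.5 in LBF and of 3.50 to 13.8 in RBF. RBF replicates changed order along it. At chr11:82128736-82129060 RBF read 0, 14.9 and 5.08 and LBF 55.9, 72.2 and 83.4, whereas at chr11:82141464-82141788 RBF read 3.16, 0.72 and 7.45 and LBF 58.3, 55.6 and 52.4. The nearest gene DMR was 784107 bp away. The run chrX:70894218-70917135 held 100 CpGs, with breed means of 15.6 to 42.6 in LBF and of 0.81 to 12.5 in RBF. Its nearest gene DMR was an intronic one assigned to COX7B2, at 10332 bp, a gene that in humans encodes a subunit of cytochrome c oxidase.

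The other DMRs near these regions were mostly higher in LBF too. Of the 705 DMRs outside the set within 10 kb of a region, 616 (87.4%) were higher in LBF, against 81.4% of the 11092 farther away. Their median log2 fold change was 1.93, against 1.496 farther away. A DMR lower in LBF lay within 10 kb of 91 regions (3.85%). All 7 other DMRs around the longest run were higher in LBF, as were the 5 around the run on chromosome 11.

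A DMR in a gene element (promoter, exon, intron or the 2 kb downstream) lay within 50 kb of 304 regions (12.8%), nearest to 229 genes. The nearest gene DMR was itself higher in LBF for 278 of the 304 (91.4%), a count in which a gene DMR near several regions enters several times. Counted once each, 350 of the 398 gene DMRs within 50 kb of a region (87.9%) were higher in LBF, against 83.0% of all 4349 gene DMRs. Gene names are human symbols from the table, and distance alone assigns no target. COX7B2 and PRKX each had 7 regions. Of the 7 PRKX DMRs in gene elements, 4 were higher in LBF. CRADD, which encodes an adaptor protein of cell death signaling, had 4 with log2 fold changes of 1.54 to 3.31, the closest at 801 bp. OR1A1, an olfactory receptor gene, also had 4, as did KIAA1644 and WDR4. ATP7A, which encodes a copper transporter, had 3, with log2 fold changes of 1.41 to 4.53.

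KIT, the receptor tyrosine kinase needed by pigment cells, germ cells and mast cells, had 6 regions for which a KIT DMR was the nearest gene DMR within 50 kb, and 22 within 200 kb, at chr8:43379704-43745084. The wider distance was chosen after the values were seen. Coat color alleles of pigs are known to include duplications of KIT. The 22 regions had breed means of 28.4 to 373 in LBF, with a median of 144, and of 3.32 to 91.1 in RBF, with a median of 25.8. Of these, 18 had an LBF mean above 100, a level reached by 126 of the 2366 regions (5.33%). At chr8:43674099-43674660, the highest of them, the depths were 375, 327 and 418 in LBF and 34.3, 32.1 and 12.1 in RBF. At chr8:43669618-43669832 they were 281, 323 and 350 in LBF and 48.1, 27.3 and 8.07 in RBF. Copy number was not analysed here, so that methylation and copy number cannot be told apart at this locus. The median log2 fold change of the 22 was 2.53, and it was 1.10 with equal library medians. On that scale all 22 stayed above 0, as did 85.1% of the 2366 regions. All 12 KIT DMRs in gene elements were higher in LBF.

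Across the 2686 named genes whose elements carried a DMR, 266 (9.90%) had 1 or more of the regions within 50 kb of such a DMR. Of the listed genes of lipid synthesis and storage, 8 had a DMR in the table and 1, AGPAT4, had a region within 50 kb. AGPAT4 encodes an acyltransferase of glycerophospholipid synthesis. The region, chr1:8325316-8325814, held 16 CpGs in an island shore, with depths of 45.2, 37.1 and 42.0 in LBF and of 0.38, 11.7 and 2.98 in RBF. Its log2 fold change was 3.36, and that of the AGPAT4 intronic DMR 11495 bp away was 3.39. A DMR in an intron of MAP3K4, a stress-signaling kinase gene, was closer, at 4080 bp. Of the listed adipocyte development genes 6 had a DMR and none had a region within 50 kb. No listed gene of the DNA methylation machinery had a DMR.

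Among developmental transcription factor genes, which pattern the embryo, 17 had a DMR and 3 of them, all HOX genes, had a region within 50 kb. The 3 genes shared 2 regions, too few to set against the 9.90% of all genes. The region chr12:24817250-24817414 held 10 CpGs, with depths of 17.2, 19.6 and 26.7 in LBF and of 4.11, 8.28 and 5.55 in RBF, and differed by 1.69 on the log2 scale. The DMR downstream of HOXB4, 30765 bp away, and the exonic DMR of HOXB8, 38534 bp away, went the other way, with log2 fold changes of -1.17 and -2.88. The region chr5:19581952-19582210 held 17 CpGs, with depths of 124, 127 and 103 in LBF and of 25.6, 17.5 and 18.4 in RBF, and differed by 2.48 on the log2 scale. The DMR in the promoter of HOXC13, 41423 bp away, was also opposite, at -2.00. At both HOX loci an intergenic region higher in LBF thus lay within 50 kb of gene DMRs lower in LBF. With equal library medians the log2 fold changes of the HOXB and HOXC regions were 0.33 and 1.03.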

How the data were processed

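The analysis started from the deposited table of DMRs between backfat MeDIP-seq libraries of 3 LBF and 3 RBF animals. The authors discarded reads of low quality, mapped the remainder by SOAP2 (genome Sscrofa 10.2 in the submitters' processing notes), took a read with several matches as 1 read, dropped CpGs under a read depth of 10 and joined differing CpGs into DMRs, which in this table hold at least 5 CpGs. The deposited signal of a library is its normalized coverage, averaged across the CpGs within a DMR. For its profiles along chromosomes the study scaled depth by the average read number of each group; whether this table was scaled likewise is not given in the sources used. The deposited table also holds a p-value and an FDR of each DMR and breed means from the authors, of which only the FDR was used, to form a subset, and none is printed. Other deposited numbers are the length, coordinates and number of CpGs of a DMR, and its marks for gene elements, CpG islands and shores. Coordinates are those of the table. A DMR with several annotation rows (15883 rows in all) was counted once. It was intergenic where its gene element read so, and in an island or shore where any of its rows said so.

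Depths were tested with limma (version 3.58.1, R 4.3.3) after adding 1 and taking log2, in a model of breed alone. P-values were adjusted by Benjamini-Hochberg across the 14163 DMRs, and 0.05 was the threshold. The script was tested on simulated data. Shares have exact 95% binomial intervals (scipy 1.17.1, with python 3.11.15, numpy 2.4.6, pandas 2.3.3 and matplotlib 3.10.9). The regions, gene lists and tests were chosen with earlier results of these data known. The regions named were the 10 with the most CpGs, the 10 with the largest log2 fold change at a mean depth of at least 10, the 5 with the highest LBF depth, the smallest fold, the most CpGs in an island, the highest density and the largest SD within each breed, the members of the 5 longest runs, and those within 50 kb of a DMR of a listed gene. Others (regions at the direction cutoff or not passing, the X windows, the wider KIT window and the recurring value of RBF replicate 2) were chosen after their values were seen. Gene lists covered lipid synthesis and storage, adipocyte development, developmental transcription factors and the DNA methylation machinery, by human symbol.

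Alternatives were pseudocounts of 0.5 and 5, untransformed depth, equal library medians, a minimum mean depth of 10, a replicate block, each library left out, an FDR under 0.005, autosomes only, other CpG minimums and other distances.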

Additional observations from a re-analysis of the deposited data

How the results depend on the processing

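The number of regions passing limma, 2359 of 2366, fell to 524 with equal library medians, where the median log2 fold change was 0.81 instead of 2.20. It was 1429, 764 and 214 where fewer regions were kept (an FDR under 0.005, at least 15 CpGs and at least 20 CpGs), out of 1429, 766 and 215. Leaving out each library in turn gave 2285 to 2360 regions and a median log2 fold change of 1.82 (without RBF replicate 3) to 2.35. Under pseudocounts of 0.5 and 5, untransformed depth, a minimum mean depth of 10 and autosomes only, the count was 2354, 2362, 2366, 2254 of 2261 and 2008 of 2015. Of the 83 named regions 77 passed. With equal library medians 11 turned negative and 35 passed in either direction. Those 35 included the 5 regions with the smallest log2 fold changes (-1.15 to -1.08 on that scale), which passed as lower. The region with the most CpGs (-0.91) also passed as lower. With the replicate number as a block 2343 regions passed. Same-numbered libraries of the breeds came from separate pigs, and their deviations correlated at 0.063, -0.012 and 0.061. Not every library correlated best with its own number, though correlations this small cannot exclude a pairing. The paper names a paired t-test for its promoter methylation values, but how animals were paired is not given in the sources used. The main model took the libraries as unpaired.

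The share in a CpG island, 1.18% at 10 CpGs, was 1.83% at 15 and 3.72% at 20 CpGs, and that in a shore, 3.21%, was 4.05% and 6.51%. Median density, 5.85 CpGs per 100 bp, was 4.09 at 20 CpGs. Another region lay within 5 kb of 8.33% and within 50 kb of 34.2% of regions, against 13.7% within 10 kb, and a gene DMR within 10 kb of 1.94% and within 200 kb of 42.9%, against 12.8% within 50 kb. The share with a 0 in RBF, 11.2%, was 6.21% to 9.47% with an RBF library left out, lowest without replicate 3. Total reads per library were not used here, so the number of reads behind low RBF values was not assessed.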
